A study of Homo sapiens with 8 samples.

Results

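The genes described here are 10 cytosolic aminoacyl-tRNA synthetases, AARS, GARS, WARS, SARS, MARS, NARS, IARS, LARS, VARS and CARS. They were taken by symbol from a table of 56303 genes, and all 10 were present and passed the filter on low counts. They were followed by MeRIP-seq in SK-N-BE(2), a human neuroblastoma line in long use. Lentivirus made from the pLKO.1 vector delivered either a control hairpin (sh-NC) or a hairpin directed at METTL14 (shMETTL14), and infected cells were selected with puromycin. Each arm held 2 cultures, and each culture gave 1 input library and 1 IP library, 8 libraries in all. The labels do not say whether the shMETTL14 cultures 1 and 2 carried the same shRNA, nor how separately the cultures of an arm were grown, so p-values measure the spread between these samples, which may be technical.

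An aminoacyl-tRNA synthetase joins an amino acid to the tRNAs that carry its anticodon, and so supplies the ribosome with its substrates. The enzymes fall into 2 structural classes with unrelated catalytic folds. MARS, IARS, LARS, VARS, CARS and WARS (methionine, isoleucine, leucine, valine, cysteine and tryptophan) belong to class I, and AARS, GARS, SARS and NARS (alanine, glycine, serine and asparagine) to class II. MARS, IARS and LARS sit in the multi-synthetase complex, a particle held together by the scaffold proteins AIMP1, AIMP2 and EEF1E1. Uncharged tRNA, which builds up when an amino acid runs short, activates the kinase GCN2 (EIF2AK4), and the transcription factor ATF4 then induces many synthetase genes through C/EBP-ATF response elements. METTL14 is the partner of METTL3 in the enzyme that writes m6A on messenger RNA. In MeRIP-seq, fragments of poly(A) RNA are sequenced before (input) and after (IP) capture by an anti-m6A antibody.

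The promoters were searched for the core of the response element, TGATGNAA on either strand, where N is any base. The window ran from 250 bases before to 50 bases after each start site in RefSeq (GRCh38.p14). All 10 genes were found there under the newer symbol that ends in 1, and 8 of them had a promoter entry. Of these 8 genes, 6 held the letters (75%), against 1217 of 27305 genes with a promoter entry (4.46%). A gene counts as holding them if any of its entries does. The 30 bases around each match are shown so that the matches and their flanks can be compared. They are written in the direction of transcription, with the match in capitals.
AARS: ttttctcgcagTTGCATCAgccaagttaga
GARS: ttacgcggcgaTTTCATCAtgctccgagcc
MARS: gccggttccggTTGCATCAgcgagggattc
NARS: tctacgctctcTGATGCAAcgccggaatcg
IARS: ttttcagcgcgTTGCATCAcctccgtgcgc
CARS: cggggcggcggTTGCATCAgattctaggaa

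With the start base counted as 0, the matches began at -187 in AARS (chr16:70289675-70289704, minus strand), -33 in the 2nd of 2 promoters of GARS (chr7:30594834-30594863, plus strand) and -4 in MARS (chr12:57488053-57488082, plus strand). They began at 14 in NARS (chr18:57621804-57621833, minus strand), -13 in IARS (chr9:92293692-92293721, minus strand) and -2 in the 1st of 2 promoters of CARS (chr11:3057407-3057436, minus strand). In 5 of the 6 the letters were TTGCATCA or its reverse complement TGATGCAA, and GARS differed by holding TTTCATCA. WARS and SARS had no match in their windows. LARS and VARS had no promoter entry. The letters were present in 1 of 7 other cytosolic synthetases (TARS, for threonine), 1 of 14 mitochondrial synthetases and 5 of 18 amino acid response genes with an entry. A match describes the sequence and is not a measured binding site.

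Library totals ran from 32027379 to 47205265 counts. Levels are given as CPM, the count over the library total as scaled by TMM factors, on the usual CPM scale. METTL14, the targeted gene, fell from 49.5 and 48.8 CPM in the control inputs to 13.7 and 14.6 CPM after knockdown, a log2 difference of -1.79 (SE 0.0663, edgeR quasi-likelihood test, adjusted p = 1.28e-15). All 9 adrenergic neuroblastoma markers were measured, among them MYCN at 4338 CPM and HAND2 at 994 CPM in sh-NC input, while ALB of liver was at 0 and PTPRC of blood cells at 0.780 CPM. Of the 2 mesenchymal markers, COL1A1, a collagen gene, stood at 85.4 CPM in sh-NC and 53.5 CPM in shMETTL14 input, and PRRX1, a transcription factor, at 0.251 and 0.725 CPM, so that 1 was lower and 1 higher (log2 difference -0.67, adjusted p = 3.88e-10, and 1.53, adjusted p = 0.0246). TH, the adrenergic marker that makes catecholamines, stood at 34.2 and 69.6 CPM. In shMETTL14 input 6 of the 9 adrenergic markers were higher and 0 lower (7 and 0 at an unadjusted p under 0.05), against 11.7% higher and 12.3% lower of all genes tested and 34.1% at an unadjusted p under 0.05 in either direction, and the part of this difference in the values below was not tested.

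All 10 synthetase mRNAs were well covered, with 2471 to 17057 counts per library. Together they held 0.229% and 0.231% of all counts in control input and 0.236% and 0.238% in knockdown input. To compare levels between genes, CPM was divided by exonic length in kilobases. On this scale AARS was highest in sh-NC input at 85.9 ± 2.52 CPM per kb (SD, n = 2), followed by SARS at 82.4 ± 1.32, GARS at 66.4 ± 0.305, VARS at 45.7 ± 0.437 and LARS at 33.6 ± 0.00354. Next came IARS at 32.5 ± 0.577 CPM per kb, NARS at 27.7 ± 0.137, MARS at 19.0 ± 0.442, WARS at 15.3 ± 0.745 and CARS at 10.2 ± 0.221. The highest and lowest were 8.41-fold apart. No neighbours in this order overlapped between the 2 cultures, and AARS and SARS, as well as LARS and IARS, were the closest. The lengths are those of all exons listed for a gene, 10037 bases for CARS and 4498 for AARS, so a gene with long exons that these cells do not use is placed too low. Reads of overlapping genes are included in the counts. If those genes gave reads evenly along their exons, they would make up 14.4% to 41.1% of the MARS counts across the libraries. For WARS the share would be 2.89% to 8.89%, so both may be placed too high.

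**Figure D1:**
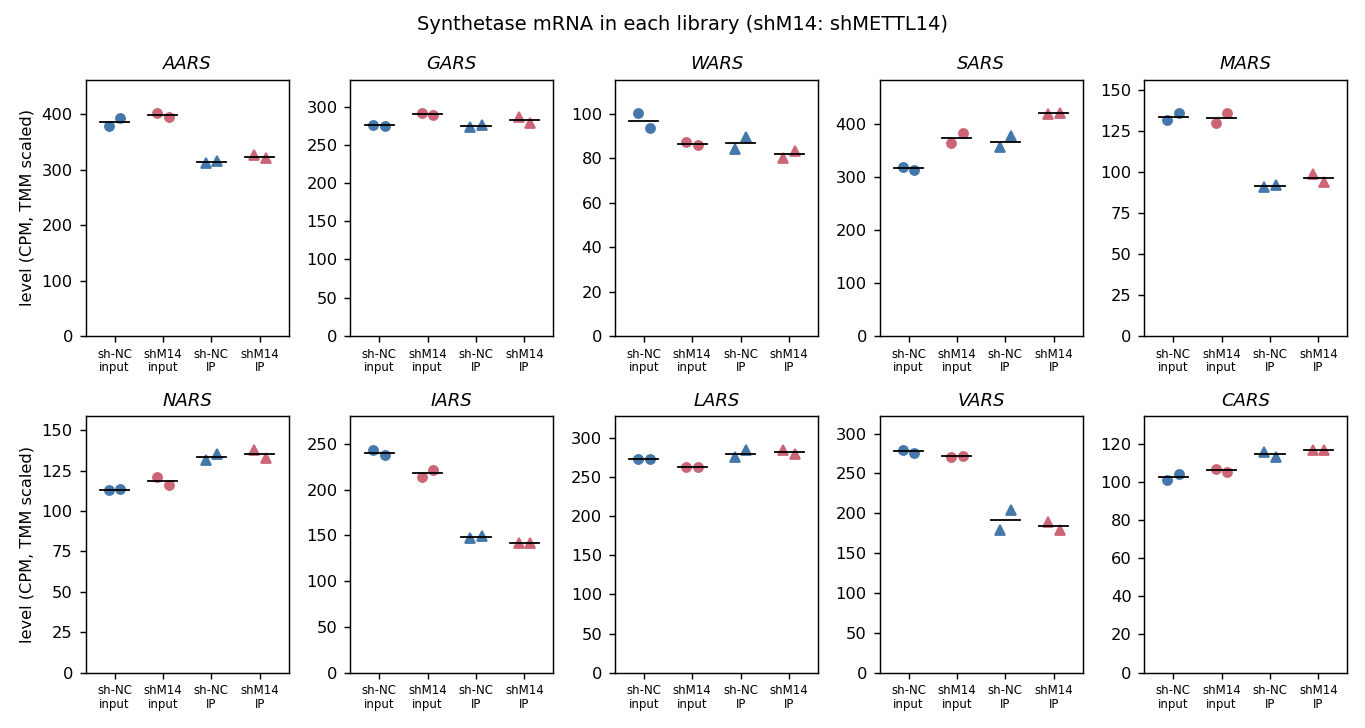
Level of each synthetase mRNA (CPM scaled by TMM, linear axes from 0) in the 2 input libraries (circles) and 2 IP libraries (triangles) of sh-NC and shMETTL14 (shM14); points are libraries and bars their means. SARS input rose from 320 and 313 to 364 and 384 CPM, while the IP levels of IARS, MARS, VARS and AARS lay below their input levels in both arms.

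Comparing input RNA between the arms asks whether the synthetase mRNAs changed in amount after METTL14 knockdown. SARS rose, WARS and IARS fell, and the other 7 did not pass the test, so the 10 did not move as a group. Of all 22245 genes tested, 11.7% were higher and 12.3% lower, against 1 and 2 of the 10 synthetases. Their median log2 difference was 0.03, beside 0.00236 for all genes. In bulk RNA, fewer cells that express a gene and less of its RNA per cell cannot be told apart.

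SARS, the seryl-tRNA synthetase, stood at 320 and 313 CPM in control input and at 364 and 384 CPM after knockdown. Both knockdown cultures lay above both controls. The log2 difference was 0.25 (SE 0.0343, 95% interval 0.178 to 0.320), a 1.19-fold rise (edgeR quasi-likelihood test, Benjamini-Hochberg adjusted p = 5.79e-06). SARS remained called under every alternative run, with adjusted p from 5.81e-10 to 0.0348.

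WARS, the tryptophanyl-tRNA synthetase and an interferon-induced gene, stood at 100.4 and 93.7 CPM in control input and 87.3 and 86.0 CPM after knockdown. IARS, the isoleucyl-tRNA synthetase, stood at 243 and 237 CPM in the controls and 214 and 222 CPM after knockdown. For both genes the knockdown cultures lay below the controls without overlap. The log2 difference was -0.16 for WARS (SE 0.0445, adjusted p = 0.0111) and -0.14 for IARS (SE 0.0354, adjusted p = 0.00583). Without sh-NC culture 1 the adjusted p of WARS was 0.144. Without shMETTL14 culture 1 or 2 it was 0.103 and 0.201 for WARS, and 0.168 and 0.0751 for IARS. Over all alternatives the adjusted p ran from 0.000813 to 0.201 for WARS and from 0.00161 to 0.230 for IARS.

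GARS, which charges glycine in both the cytosol and the mitochondrion, was at 276 and 275 CPM in control input and 291 and 289 CPM after knockdown. Its groups did not overlap, but the log2 difference of 0.08 (unadjusted p = 0.0224, adjusted p = 0.0805) missed the threshold. MARS, which also charges the initiator tRNA, was at 132 and 136 CPM in the controls and 130 and 136 CPM after knockdown, and its groups overlapped almost fully. For MARS the 95% interval ran from -0.0854 to 0.0799 on the log2 scale. AARS, NARS and CARS differed by 0.05, 0.07 and 0.06, and LARS and VARS by -0.05 and -0.03, with adjusted p from 0.208 to 0.634. In all, 9 of the 10 genes had groups without overlap, 5 higher and 4 lower in shMETTL14, against 28.5% higher and 29.9% lower of all genes tested, in a design of 2 against 2 where an exact permutation test cannot go below 0.333.

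By class, all 4 class II genes had a positive input difference (median log2 difference 0.08) and 5 of the 6 class I genes a negative one (median -0.04), though MARS, LARS and VARS turned positive when factors were taken from the least enriched genes. MARS, at -0.00276 (SE 0.0400), also turned positive with library size only (0.00395), with no filter (0.0113) and with sh-NC culture 2 (0.0196) or shMETTL14 culture 1 (0.0290) left out. Only SARS in class II and WARS and IARS in class I passed the test, and the median of all genes was 0.00236. The signs therefore rest mostly on genes that did not pass. The difference between the classes was not tested, and the 11 other cytosolic synthetases were not sorted by class. Of the genes of the multi-synthetase complex, IARS fell and MARS and LARS did not pass.

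**Figure D2:**
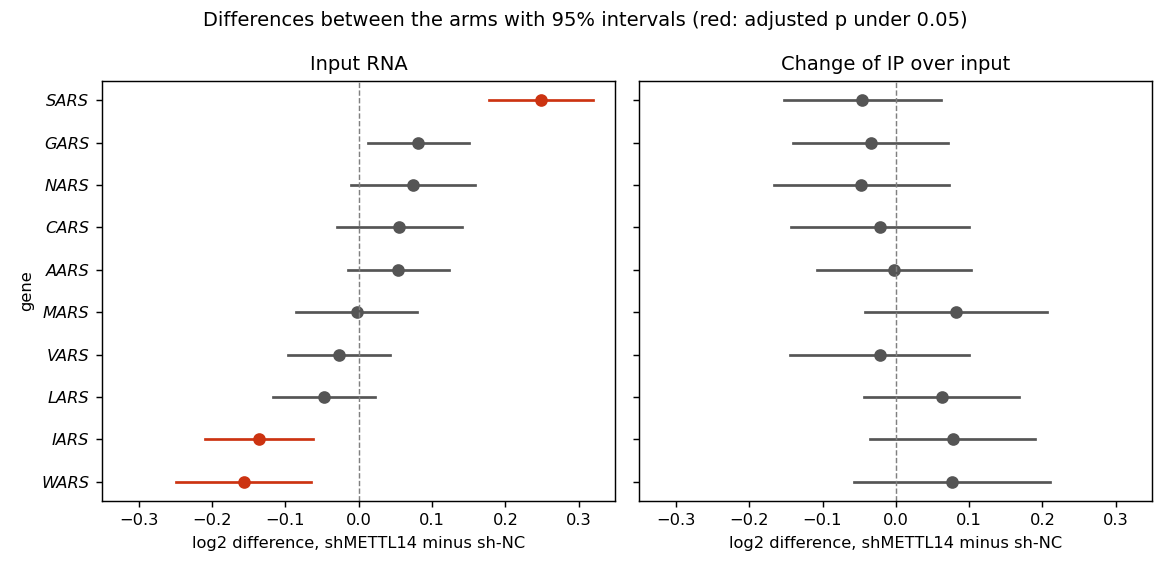
Left, log2 difference of input RNA and right, log2 change of IP over input, each as shMETTL14 minus sh-NC, for the 10 synthetases; points are edgeR estimates and bars 95% intervals, red where the adjusted p is under 0.05. In the input, SARS (0.25), IARS (-0.14) and WARS (-0.16) are red, and in the IP over input panel all 10 intervals include 0.

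IP over input asks which synthetase mRNAs were pulled down by the m6A antibody more or less than the typical gene. The TMM factors place the typical gene near 1, so a value of 1 is an enrichment like that of the typical gene, not an absence of m6A. The 10 genes spread widely. In sh-NC, SARS, NARS and CARS were higher in IP and AARS, WARS, MARS, IARS and VARS lower, 3 and 5 of 10, against 29.1% higher and 29.8% lower of 22953 genes tested. In shMETTL14, SARS, NARS, LARS and CARS were higher and AARS, MARS, IARS and VARS lower, 4 and 4 of 10, against 28.9% higher and 29.1% lower of all genes. The median log2 IP over input of the 10 was -0.08 in sh-NC and -0.06 in shMETTL14, beside -0.0142 and -0.00831 for all genes.

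On the deposited counts IARS had the lowest ratio, at 0.606 and 0.627 in the controls and 0.663 and 0.638 after knockdown. VARS, for valine, followed at 0.641 and 0.741 in the controls and 0.698 and 0.659 after knockdown. MARS had control ratios of 0.693 and 0.679 and knockdown ratios of 0.761 and 0.692. All 3 were below 1 in all 4 cultures, and AARS was next at 0.802 to 0.823. IARS, VARS and MARS are of class I, but so are LARS (1.01 to 1.08) and CARS (1.08 to 1.15), which lay above 1. In sh-NC the log2 IP over input was -0.70 for IARS (SE 0.0394, adjusted p = 2.56e-21), -0.54 for MARS (SE 0.0436, adjusted p = 1.04e-15), -0.54 for VARS (SE 0.0430, adjusted p = 9.94e-16) and -0.30 for AARS (SE 0.0369, adjusted p = 6.87e-10). In shMETTL14 the values were -0.62, -0.46, -0.56 and -0.30.

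MARS shares 355 exonic bases with DDIT3 on the opposite strand, and the table counted reads without regard to strand, so some reads of DDIT3 stand in the MARS row. DDIT3 counts were 51.2% to 146% of those of MARS. With an even share of them taken from MARS, its log2 IP over input became -1.05 in sh-NC and -0.90 in shMETTL14. Its ratios were then 0.502 and 0.467 in the controls and 0.564 and 0.513 after knockdown, below those of IARS in all 4 cultures. WARS shares bases with WDR25 and a second opposite-strand gene, and with the same step its value in sh-NC moved from -0.16 (adjusted p = 0.00308) to -0.08 (adjusted p = 0.161, over a range of 2.23e-21 to 0.538 across alternatives). Without sh-NC culture 1 it was -0.05 (adjusted p = 0.538). In shMETTL14 WARS had a log2 value of -0.08 and did not pass (adjusted p = 0.138). AARS, SARS, NARS, IARS and VARS share no exonic bases with another gene.

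SARS had ratios of 1.12 and 1.21 in the controls and 1.15 and 1.10 after knockdown. NARS, the asparaginyl-tRNA synthetase, had ratios of 1.17 and 1.19 in the controls and 1.14 in both knockdown cultures. For CARS, the cysteinyl-tRNA synthetase, the control ratios were 1.15 and 1.08 and the knockdown ratios 1.09 and 1.11. These were the highest of the 10, and their ranges overlapped one another. In sh-NC the log2 IP over input was 0.21 for SARS (adjusted p = 3.14e-06), 0.24 for NARS (adjusted p = 3.22e-06) and 0.16 for CARS (adjusted p = 0.00134), and in shMETTL14 it was 0.17, 0.19 and 0.14. GARS straddled 1, with control ratios of 0.988 and 1.01 and knockdown ratios of 0.982 and 0.965. LARS, the leucyl-tRNA synthetase, had control ratios of 1.01 and 1.04 and knockdown ratios of 1.08 and 1.06, and its log2 value of 0.10 in shMETTL14 (adjusted p = 0.0200) passed narrowly. With each culture as a block the adjusted p of LARS was 0.0516. In shMETTL14, SARS lost its call without culture 1 (adjusted p = 0.0804), and LARS and CARS lost theirs without culture 1 (0.260 and 0.0696) or culture 2 (0.130 and 0.122). Over all alternatives the adjusted p in shMETTL14 ran from 1.03e-28 to 0.238 for SARS, from 1.85e-27 to 0.627 for LARS and from 1.93e-27 to 0.769 for CARS.

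In the order of mean IP over input over 4 cultures, taken from the deposited counts, IARS, VARS and MARS overlapped in turn, as did WARS and GARS, and CARS, SARS and NARS. MARS and AARS, AARS and WARS, GARS and LARS, and LARS and CARS did not overlap. Of the 10 genes 5 lay below 1 in all 4 cultures, 4 lay above, and GARS lay on both sides. With the even share of overlapping genes removed, MARS took the lowest place ahead of IARS, and WARS reached 1.01 and 1.02 in 2 of its 4 cultures. The sign depends on the zero point. Scaled on the least enriched genes, the median log2 value of all genes rose to 0.921 in sh-NC and 0.804 in shMETTL14, and all 10 synthetases were then positive.

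**Figure D3:**
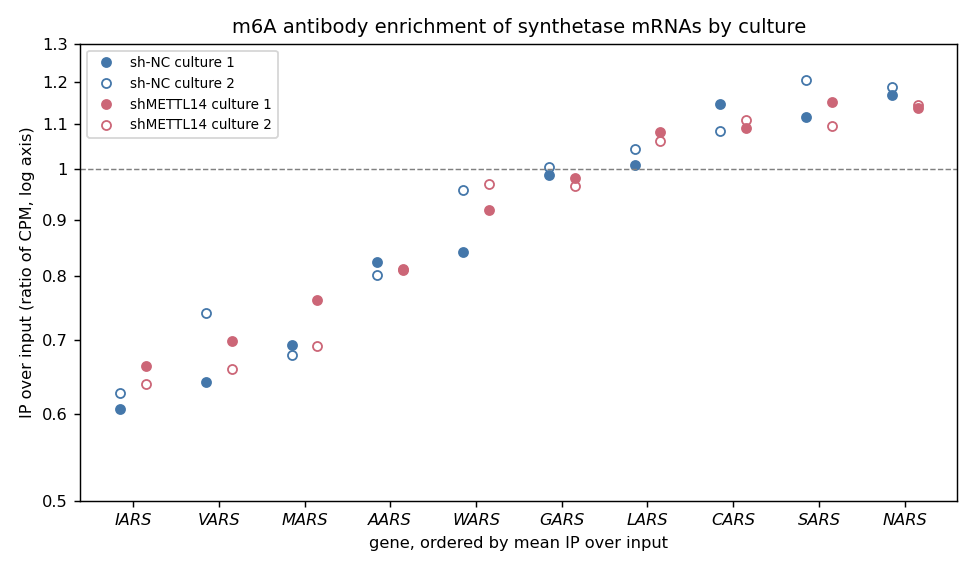
IP over input of the 10 synthetase mRNAs (ratio of CPM, log axis) in each of the 4 cultures, ordered by their mean; filled and open points are cultures 1 and 2 of sh-NC (blue) and shMETTL14 (red), and the dashed line marks 1. On the deposited counts IARS lies lowest at 0.606 to 0.663 (MARS, once the even share of DDIT3 reads is removed) and NARS highest at 1.14 to 1.19.

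The change of IP over input asks whether the antibody enrichment of each synthetase mRNA, relative to the typical gene, differed after knockdown. The TMM factors centre the typical gene in each arm, so a change shared by most genes is scaled out. Scaled instead on the genes least enriched in sh-NC, the median log2 change was -0.123 for all genes and -0.135 for the 10 synthetases. Those genes were picked as lowest in these same sh-NC libraries. That choice alone tends to make the change of other genes negative, so these medians cannot measure a shared change. Whether enrichment changed in most genes together was not tested. None of the 10 passed the test in either direction, in edgeR or in DESeq2. In edgeR 0 of the 10 had an unadjusted p under 0.05, against 6.34% of all genes, so this count is near that share. Of 22953 genes, 0% were higher and 0.00436% lower, a single gene, the amino acid transporter SLC7A5, which DESeq2 did not call. The log2 changes ran from -0.05 for NARS and SARS to 0.08 for MARS, IARS and WARS, with adjusted p from 0.867 to 0.999. The widest reach of the 95% intervals was from -0.167 (NARS) to 0.211 (WARS). For AARS, the change was -0.00286 with an interval from -0.108 to 0.102. The groups of 4 genes did not overlap, 2 higher and 2 lower in shMETTL14, close to the 17.2% higher and 17.4% lower of all genes tested.

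The IP libraries alone, which carry the RNA level as well as the enrichment, gave a difference for SARS of 0.20 (adjusted p = 0.00024, against 0.00024 to 1 over its alternatives), in the same direction as its input. Its IP levels were 357 and 377 CPM in the controls and 419 and 421 CPM after knockdown. The ratio to input, which takes out the level, changed by -0.05 (95% interval -0.153 to 0.0618).

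SLC7A5, which imports leucine and other large amino acids that LARS and IARS charge, fell in input from 141 and 119 to 94.4 and 92.7 CPM (log2 difference -0.47, adjusted p = 3.97e-07). Its ratio of IP to input went from 1.06 and 1.26 to 0.90 and 0.764 (log2 change -0.47, SE 0.0783, adjusted p = 0.00666). The adjusted p of this change was 1 in DESeq2, 0.0788 without sh-NC culture 2, and 0.204 and 0.966 without shMETTL14 culture 1 and 2, over a range of 6.64e-18 to 1 across alternatives. That of its input difference was 0.0507 with no filter, over a range of 1.77e-22 to 0.0507.

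The other genes of the pathway are compared in input RNA by lists. Of 11 other cytosolic synthetases, 1 rose and 3 fell, against 11.7% and 12.3% of all genes. HARS, the histidyl-tRNA synthetase, rose from 121 and 122 to 148 and 151 CPM (log2 difference 0.31, adjusted p = 1.48e-06), and part of its exons overlap WDR55 and HARS2. FARSB, the beta subunit of the phenylalanyl-tRNA synthetase, fell from 73.0 and 68.8 to 56.7 and 54.7 CPM (-0.34, adjusted p = 1.14e-05). QARS, for glutamine, fell by 0.29 and DARS, for aspartate, by 0.14 on the log2 scale, and QARS and DARS sit in the multi-synthetase complex. Of the scaffold genes AIMP1 fell by 0.19 (adjusted p = 0.0194), and AIMP2 and EEF1E1 did not pass. The median over the 11 was -0.03, beside 0.00236 for all genes.

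Of the 23 amino acid response genes, 5 rose and 11 fell, against 11.7% and 12.3% of all genes, with a median log2 difference of -0.08. CHAC1, which degrades glutathione, and SESN2, a leucine sensor, rose by 0.72 and 0.70. NUPR1, a stress-induced regulator, and SLC7A11, the cystine transporter, fell by 0.64 and 0.58 on the log2 scale. ATF4 itself fell by 0.12 and ASNS, asparagine synthetase, by 0.24. The 10 synthetases spanned a narrower range, from -0.16 to 0.25, and the difference between the lists was not tested. CHAC1 and NUPR1, the ends of the response list, had at most 182 counts in any input, with SEs of 0.223 and 0.155. Every synthetase had at least 2471 counts. SESN2 and SLC7A11 each had an SE of 0.089.

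IP over input of the other 11 cytosolic synthetases ran from -0.63 (FARSB, adjusted p = 3.76e-13) to 0.44 (HARS, adjusted p = 1.64e-13) on the log2 scale in sh-NC, and from -0.33 to 0.38 for the same genes in shMETTL14. In sh-NC 5 of 11 were higher and 5 lower, against 29.1% and 29.8% of all genes. In shMETTL14 5 were higher and 3 lower, against 28.9% and 29.1%. FARSB had control ratios of 0.569 and 0.740 and knockdown ratios of 0.798 and 0.792 without overlap, and its change did not pass the test. None of the 11 changes passed. At an unadjusted p under 0.05 in edgeR, 3 were higher and 0 lower, against 6.34% of all genes in either direction. AIMP1 and EEF1E1 were higher in IP and AIMP2 lower in both arms, and all 3 share exonic bases, and so reads, with another gene.

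The genes whose pattern was most like the mean of the 10 synthetases over the 8 libraries were RNF10, RNF114, PCBP2-OT1, ADSL and NDUFB2-AS1, with Pearson r from 0.994 to 0.995 among 16432 genes. The libraries share the split of IP from input, which dominates the pattern, since the mean log2 level of the 10 was lower in all 4 IP libraries than in all 4 inputs.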

How the data were processed

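RNA of SK-N-BE(2) cells was poly(A)-selected, fragmented and immunoprecipitated with an anti-m6A antibody; stranded libraries with unique molecular identifiers were sequenced on DNBSEQ-T7. The submitters' processing notes name Trimmomatic 0.36 and the build GRCh38. The aligner, counter, annotation and strand setting are not given in the sources used here. The authors deposited raw counts per gene, without normalization. Of the 56303 rows 16597 had no count. In 360 gene pairs nested on opposite strands the median ratio of read density was 0.732, so reads were counted without regard to strand, and overlapping genes share reads.

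Samples were grouped by their titles. The main tests used edgeR 4.0.16 under R 4.3.3 (filterByExpr, TMM, glmQLFit, glmQLFTest, two-sided, Benjamini-Hochberg over all genes tested, threshold 0.05, prior count 2). Input RNA was compared in the 4 inputs (22245 genes). IP over input and its change came from 1 model of 8 libraries (22953 genes). SE is the absolute log2 difference over the square root of F. The alternatives tried were RLE factors, no factors beyond library size, factors from the 25% of genes least enriched in IP, DESeq2 1.42.0, no filter, at least 10 counts in every library, other sets of libraries, a replicate block and leaving out each culture. The even share of overlapping genes was added after seeing the data. The fits were tested on simulated data.

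The IP and input of a culture come from the same RNA by protocol, but their deviations from the group means showed correlations of 0.004 (sh-NC) and 5.7e-05 (shMETTL14) across genes. Same-numbered inputs of the arms correlated by -0.012. The IP and input of a culture, a known pair, also showed almost no correlation, so this check cannot tell whether numbers pair the arms. Replicate libraries differed by more than sampling noise (chi-square per gene 2.4 to 3.85). Members of the list and other lists were chosen with earlier results of these data known. All 10 synthetases were named, and of each other list at most 4 genes per comparison with the largest change among those past the threshold, except ATF4, ASNS and the input level of SLC7A5, chosen after their values were seen. The values of 1 mitochondrial synthetase are not reported here. The pseudogene copies held at most 2 counts in any library. Sequences are from RefSeq (GRCh38.p14). Figures were drawn with matplotlib 3.10.9.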

Additional observations from a re-analysis of the deposited data

How the results depend on the processing

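The 10 genes had 2471 to 17057 counts in each library, and each arm had 2 cultures. In input RNA, 111 of 130 gene values under the alternatives kept direction and call. With factors from the least enriched genes 4 synthetases were higher and 0 lower, beside 3603 higher and 1866 lower of all 22245 genes. With no filter 0 were lower, beside 1072 of 37399 genes. With 1 culture left out, WARS ran from -0.2073 to -0.1075 and IARS from -0.1667 to -0.1098. MARS turned to 0.00395 with library size only, 0.0558 with the least enriched genes and 0.0113 with no filter, and ran from -0.0394 to 0.0290 with a culture left out. LARS and VARS turned to 0.0107 and 0.0310 with the least enriched genes. In IP over input, 96 of 110 values in sh-NC and 90 of 110 in shMETTL14 kept direction and call. Library size only put LARS at -0.0926 in sh-NC and -0.0210 in shMETTL14. It left 0 synthetases higher in shMETTL14, beside 5322 of all 22953 genes. It moved the median of all genes to -0.142 in sh-NC and -0.128 in shMETTL14. The least enriched genes moved that median to 0.921 and 0.804 and gave 10 higher and 0 lower in each arm. The values of AARS, GARS, WARS, MARS, IARS and VARS were then 0.64, 0.93, 0.78, 0.39, 0.24 and 0.40 for the controls, and 0.51, 0.78, 0.73, 0.35, 0.19 and 0.25 after knockdown. In sh-NC GARS was 0.00574 with no filter and ran from -0.0127 to 0.0229 with a culture left out. In shMETTL14, 1 to 2 synthetases were higher with a culture left out. With the replicate block LARS lost its call in shMETTL14 (0.10, adjusted p = 0.0516), and the block changed no other call of the 40 followed.

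In the change of IP over input, 113 of 130 values kept direction and call. AARS was 0.00621 with library size only. With the least enriched genes, which moved the median of all genes to -0.123, WARS, MARS, IARS and LARS were -0.0462, -0.0410, -0.0455 and -0.0608. With the IP libraries alone 1 synthetase was higher, SARS at 0.20, beside 2207 of all 21196 genes. AARS, GARS, WARS, NARS, IARS and CARS were then 0.0431, 0.0393, -0.0877, 0.0193, -0.0664 and 0.0266. With a culture left out WARS ran from -0.0377 to 0.17, CARS from -0.0612 to 0.00185, SARS from -0.12 to 0.00905 and VARS from -0.15 to 0.0820. The cause of these differences was not tested, except that the IP libraries alone keep the change of RNA level by construction.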

Other observations

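Of 17 mitochondrial synthetases, which charge tRNAs for translation inside the organelle, 1 rose and 2 fell in shMETTL14 input, against 11.7% and 12.3% of all genes. AARS2, for alanine, rose by 0.14 on the log2 scale (adjusted p = 0.0262), and SARS2, for serine, fell by 0.28 (adjusted p = 0.0231) in edgeR's quasi-likelihood test. SARS2 and AARS2 overlap other genes, which share their reads. In sh-NC 6 of the 17 were higher and 7 lower in IP than in input, against 29.1% and 29.8% of all genes. The log2 values ran from -0.74 for SARS2 to 0.73 for PARS2, for proline, at least as far apart as those of the cytosolic enzymes. PARS2 was sparsely counted, with 102 and 97 counts in the sh-NC inputs.

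Of 9 genes around the eIF2 kinases, 2 rose and 2 fell in shMETTL14 input, against 11.7% and 12.3% of all genes. In edgeR's quasi-likelihood test PPP1R15A, a phosphatase subunit that reverses eIF2 phosphorylation, rose by 0.18 on the log2 scale (adjusted p = 0.00175). EIF2AK4, the sensor of uncharged tRNA, rose by 0.13 (adjusted p = 0.0394). IMPACT, an inhibitor of EIF2AK4, fell by 0.39 (adjusted p = 0.000493) and GCN1, an activator of EIF2AK4, by 0.14 (adjusted p = 0.00409) in the same test. Of 3 factors that clear mischarged tRNA, 1 rose and 0 fell, against the same shares of all genes. AARSD1, which shares reads with a read-through gene, rose by 0.16 (adjusted p = 0.0438, same test), and DTD1 and DTD2 did not pass.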
